A study of Mus musculus with 6 samples.

Results

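Cytosolic ribosomal proteins are the protein parts of the ribosome that translates nuclear-encoded mRNA. Their genes were chosen by name: a gene qualified if it was the only symbol of a probe set and began with Rpl or Rps and a digit, or was Rplp0, Rplp1, Rplp2 or Rpsa. Ribosomal S6 kinases and symbols marked as pseudogenes were left out. The rule itself uses names alone. This gave 63 genes of the 19938 measured. They comprise 21 genes of the small (40S) subunit, 33 of the large (60S) subunit and its stalk, and 8 paralogs and retrogenes. The last is Rps19bp1, whose product binds Rps19 and is no ribosomal protein itself. Each gene is represented by the probe set with the highest mean signal over the 6 arrays, out of 219 probe sets that name 1 of these genes alone.

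The 40S subunit reads the mRNA and the 60S subunit joins the amino acids, with an acidic stalk that recruits translation factors. Many ribosomal protein mRNAs begin with a C followed by a run of pyrimidines, the 5′ terminal oligopyrimidine (TOP) tract, through which mTOR signalling controls their translation. Haematopoietic stem cells are known for low protein synthesis, and loss of 1 copy of certain ribosomal protein genes causes anaemia or marrow failure in patients.

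The study compared leukaemia stem cells carrying the BCR-ABL fusion kinase, with or without added Blk, a kinase of the Src family found mostly in B cells. Donor marrow of wild-type C57BL/6 mice, 8 weeks old and treated beforehand with 5-fluorouracil, received a retrovirus with GFP alone (vector), GFP with BCR-ABL, or GFP with both BCR-ABL and Blk, and was transplanted into recipients of the same strain. At 14 days GFP+ Lin- c-Kit+ Sca-1+ cells (the LSK gate, which all 3 groups share) were sorted and their RNA was put on Affymetrix arrays, with 2 labelled biological replicates per group. How many mice made up a replicate is not stated, so p-values measure the spread between these arrays.

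Values are log2 signal, quantile normalized across the 6 arrays. The signal of a probe set depends on its probes, so levels of different genes are not compared as amounts of RNA. These genes have near-identical copies and many pseudogenes in the mouse genome, and a member's signal can include RNA from such copies. Signal lay above 12 for 47 of the 63 genes and at or below it for 16, and 52 genes (82.5%) were among the top 5% of all genes by signal; the median gene had 7.50. The genes below 12 include the paralogs Rpl39l (mean 5.31), Rpl10l (6.14) and Rpl3l (6.38), and also Rpl12 (8.45) and Rpl30 (9.80). Fewer cells of a type and less RNA per cell cannot be told apart in such bulk samples.

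Markers show how the sorted cells differed. The summed linear signal of 7 LSK markers was 6963 and 6867 in vector, 8498 and 9035 in BCR-ABL, and 9932 and 9402 in BCR-ABL-Blk. Kit lay between 10.33 and 10.92 and Cd34 between 11.54 and 11.97 on all arrays, while Ly6a, which encodes Sca-1, was not analysed here. By gene, 6 of the 7 were higher and 1, Kit, lower in both comparisons with vector. The median log2 differences were 0.693 for BCR-ABL and 0.762 for BCR-ABL-Blk. Mecom rose most (1.85 and 2.28), with vector arrays at 7.89 and 6.54. Meis1 passed the limma test in BCR-ABL-Blk minus vector (1.08, adjusted p 0.049). The sum of 9 B cell markers was 19015 and 6546 in vector but 2615 to 4807 on the other 4 arrays, and that of 5 erythroid markers 5128 to 7344 in vector and 1843 to 3392 on the others. Sums for 8 neutrophil markers were 18698 and 28226 in vector, 17189 and 17966 in BCR-ABL, and 15375 and 13618 in BCR-ABL-Blk. For 6 monocyte markers they were 4121 and 6341 in vector and 1850 to 2430 on the other 4 arrays. For 6 mast cell and basophil markers they were 3194 and 3891 in vector, 7276 and 8110 in BCR-ABL, and 8614 and 3984 in BCR-ABL-Blk. By gene, 4 of these 6 were higher and 2 lower in both comparisons with vector. Gzmb passed the limma test in both (3.25 and 2.5, adjusted p 0.0187 and 0.049). The sums for 5 T and NK markers ran from 470 to 575. Of these 5, 3 were higher and 2 lower in BCR-ABL minus vector, and 2 higher and 3 lower in BCR-ABL-Blk minus vector. Klrd1 passed the limma test as lower in both (-1.29 and -1.03, adjusted p 0.0187 and 0.049). The part of these shifts in the results was not tested.

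The sequences around the transcription starts show the tract in a part of these genes. Of the 63 genes, 51 had an entry among RefSeq promoter windows (build GRCm38.p6; 250 bases before to 50 after the annotated start). A tract, taken as C at the annotated start with at least 4 further pyrimidines, was found in 10 of 51 (19.6%), against 813 of 27025 genes (3.01%) in the RefSeq windows. An annotated start can lie some bases from the real one, in these genes as in the others, which can hide a tract or show one that is not there. Each line gives 15 bases before and 15 bases from the start, on the gene's strand, with the tract in capitals. These are the 10 genes with the tract at the annotated start. Control of these stretches by mTOR was not tested.

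Rpl14, chr9:120571502-120571531, plus strand: gggcgggccctctctCTTCTCgctgagcgc
Rpl28, chr7:4792950-4792979, plus strand: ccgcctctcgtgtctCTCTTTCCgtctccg
Rpl32l, chr10:20208424-20208453, plus strand: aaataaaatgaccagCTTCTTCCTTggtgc
Rpl38, chr11:114668565-114668594, plus strand: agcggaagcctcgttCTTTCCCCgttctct
Rplp2, chr7:141447636-141447665, plus strand: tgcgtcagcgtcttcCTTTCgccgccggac
Rps10, chr17:27635230-27635259, minus strand: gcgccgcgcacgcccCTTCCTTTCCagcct
Rps15a, chr7:118116133-118116162, minus strand: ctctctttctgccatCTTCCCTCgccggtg
Rps18, chr17:33955651-33955680, minus strand: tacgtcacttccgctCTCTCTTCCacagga
Rps21, chr2:180257364-180257393, plus strand: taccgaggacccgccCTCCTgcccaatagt
Rps6, chr4:86857353-86857382, minus strand: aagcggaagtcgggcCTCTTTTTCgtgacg

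A run of at least 10 pyrimidines within 15 bases of the start was present in 15 of 51 genes (29.4%) against 6.25% of all genes. On either strand of the whole window, the letters CCGGAAG, a core that GABP and other ETS factors can bind, were found in 19 genes (37.3%; all genes 9.93%), and TCTCGCGAG in 7 (13.7%; all genes 0.762%). ATGGCGG, part of the YY1 motif, was found in 8 (15.7%; all genes 4.69%). The E-box CACGTG, which MYC and MAX can bind, was found in 5 (9.8%; all genes 8.09%), and TATAAA in 6 (11.8%; all genes 15.7%). GGGCGG, the GC box, was in 30 (58.8%, all genes 38.2%), against 52.9% of the 15614 genes with a window that were measured on the arrays. Among those array genes CCGGAAG was found in 13.6%, TCTCGCGAG in 1.18% and ATGGCGG in 6.39%. CACGTG was found in 9.5% of them and TATAAA in 13.6%. The 12 genes without an entry are Rpl21, Rpl23a, Rpl29, Rpl30, Rpl36, Rpl7, Rpl8, Rplp1, Rps14, Rps20, Rps29 and Rps4l.

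BCR-ABL against vector asks what the oncogene changes in cells of the same gate. None of the 63 ribosomal protein genes passed the test (limma, Benjamini-Hochberg adjusted over 19938 genes, threshold 0.05), against 0.145% of all genes. The smallest adjusted p of a member was 0.409, and 3 members had an unadjusted limma p under 0.05 (all genes 8.64%): Rpl12, Rpl6 and Rpl3l. The median member difference was 0.005 (all genes 0.016), with 33 members above 0 (all genes 54.3%) and 30 below, and the members ran from -0.27 to 0.36. The sign of the median turned with the scaling: it was -0.03 without normalization between arrays (16 members above 0; all-gene median -0.11), 0.115 when arrays were centred on their medians (58), and -0.045 with cyclic loess (13). Set against the median of all genes it ran from -0.047 (cyclic loess) to 0.08 (no normalization, or arrays centred). Arrays of the groups did not overlap for 17 members (27%; all genes 37%), with 9 members higher (all genes 22.1%) and 8 lower (all genes 14.9%) in BCR-ABL.

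The intervals around the differences in signal were narrow. The 95% limma interval lay within 1.2-fold either way for 50 of 63 members (79.4%), against 8.78% of all genes and 81% of the 300 other genes with signal above 12. It lay within 1.5-fold for 62 members (98.4%; all genes 78.3%). The median standard error was 0.042 for the members, 0.129 for all genes and 0.054 for the other genes above 12. These intervals rest on quantile normalized values and do not cover a shift of the whole list that the choice of scaling can add or remove. The highest deposited value of an array lay between 13.92 and 14.08. Whether signal near that top still follows the amount of RNA was not tested.

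**Figure D1:**
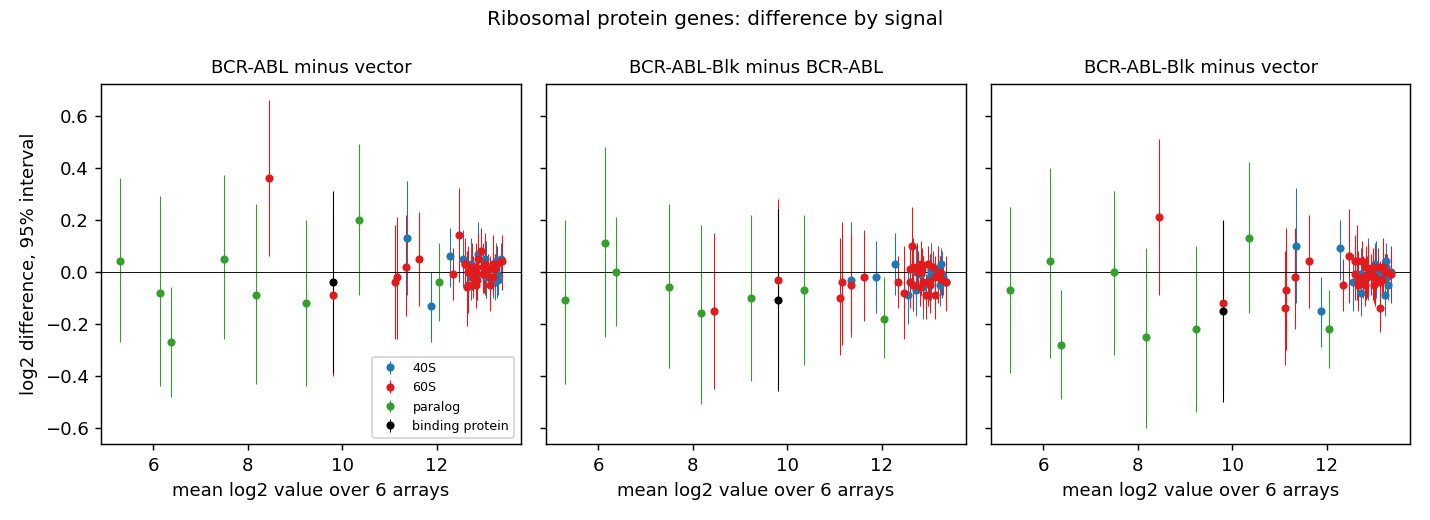
Each panel plots, for 1 comparison, the log2 difference of the 63 genes with its 95% limma interval (y) against mean log2 signal over 6 arrays (x), with colours for the gene classes. Points above a signal of 12 sit near 0 and the wide intervals belong to genes below 12, such as Rpl12 (0.36 in BCR-ABL minus vector) and Rpl3l (-0.27).

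Blk added to BCR-ABL asks what the second kinase changes where both groups carry the oncogene. No member passed the limma test, as was the case for all 19938 genes (0% called), and the smallest adjusted p of a member was 0.999. At an unadjusted limma p under 0.05 there were 2 members, Rpl6 and Rps27l, both lower with Blk (all genes 3.96%). The median member difference was -0.026 (all genes -0.014), with 16 members above 0 (all genes 45.6%) and 47 below. The median was -0.19 with arrays centred (1 member above 0) and -0.018 with cyclic loess (20). Without normalization between arrays it was 0.11 (62 members above 0), where the median of all genes was 0.255. Set against the median of all genes, the members' median was lower under all 4 scalings, by values from -0.145 to -0.012. It was higher without BCR-ABL replicate 2 (by 0.005) and without BCR-ABL-Blk replicate 2 (by 0.002). Centring moves all genes of an array alike. Set against all genes, centring and no normalization therefore give the same value, here and for the lists below. Arrays did not overlap for 21 members (33.3%; all genes 34%), of which 18 were lower with Blk (all genes 20%) and 3 higher (all genes 14%). The 3 higher ones were Rps6, Rpl38 and Rpl27, the last named after its values were seen. The interval lay within 1.2-fold for 51 members (81%; all genes 9.74%, other genes above 12 84.7%) and within 1.5-fold for all 63 measured.

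BCR-ABL-Blk against vector shares its arrays with both comparisons above. Again 0 members passed the limma test (all genes 0.14%), with a smallest adjusted p of 0.298, and 5 had an unadjusted limma p under 0.05, all of them lower (all genes 9.42%): Rplp1, Rps27l, Rpl3l, Rps29 and Rps19. The median member difference was -0.016 (all genes 0.004), with 25 members above 0 (all genes 51.2%) and 38 below. It was 0.07 without normalization (56 members above 0; all-gene median 0.15), -0.085 with arrays centred (7) and -0.05 with cyclic loess (9). Leaving out vector replicate 1 gave 0.001, and leaving out BCR-ABL-Blk replicate 2 gave 0.002. Arrays did not overlap for 23 members (36.5%; all genes 37.2%), 17 of them lower (all genes 17.5%) and 6 higher (all genes 19.7%), and the interval lay within 1.2-fold for 48 members (76.2%; all genes 8.75%, other genes above 12 79%).

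**Figure D2:**
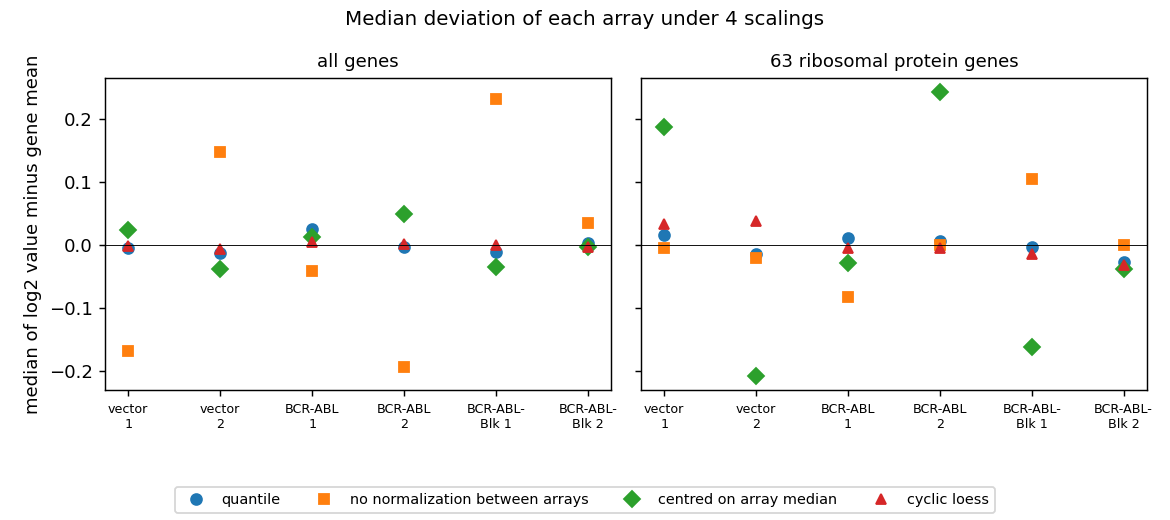
Median deviation of each array from the gene means (y, log2) for all 19938 genes and for the 63 ribosomal protein genes, by array (x) and under 4 scalings. After quantile normalization the array medians of the 63 genes lie near 0; with arrays centred on their medians the replicates of vector and of BCR-ABL lie far apart.

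In the deposited values the median signal of the 63 genes was 12.81 and 12.79 in vector, 12.69 and 12.81 with BCR-ABL, and 12.91 and 12.80 with BCR-ABL-Blk. The median of all genes on the same arrays was 7.32, 7.63, 7.46, 7.27, 7.76 and 7.51. The members' medians thus spread less over the arrays than the medians of all genes. The all-gene median difference moved to -0.11, 0.255 and 0.15 in the 3 comparisons in the order above when arrays were not normalized.

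**Figure D3:**
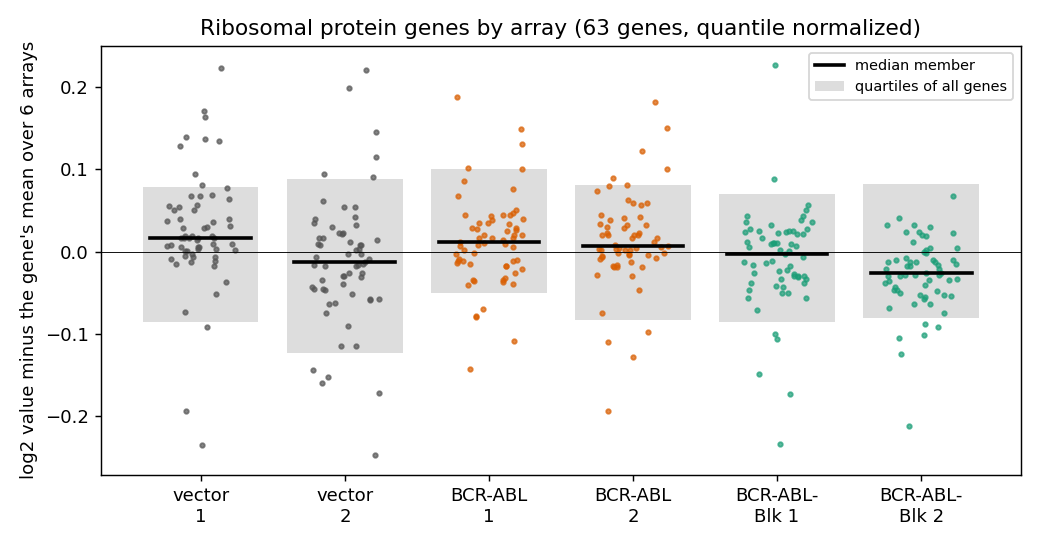
Deviation of each of the 63 genes from its own mean over the 6 arrays (y, log2) by array (x), with a point for each gene, a black line for the median gene and a grey box from the lower to the upper quartile of all genes. The median lines lie near 0 on all 6 arrays, and most points lie inside the grey boxes.

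Replicates of a group lay closer for these genes than for genes at large. The median absolute gap between replicates was 0.045 in vector, 0.037 in BCR-ABL and 0.039 with BCR-ABL-Blk, against 0.145, 0.118 and 0.12 for all genes. Other genes with signal above 12 had gaps of 0.074, 0.05 and 0.048. The widest gap of a member was 0.35.

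Among the 40S genes the median difference was 0.011 for BCR-ABL against vector, -0.02 for Blk added to BCR-ABL and -0.003 for BCR-ABL-Blk against vector, with 12, 6 and 10 of 21 genes above 0. The BCR-ABL minus vector median turned below 0 with cyclic loess (-0.047), without normalization between arrays (-0.03) and without vector replicate 2 (-0.003). That for Blk added to BCR-ABL changed sign only without normalization (0.1). That for BCR-ABL-Blk against vector changed sign there (0.07) and without vector replicate 1 (0.006). Without normalization the all-gene median moved by more. Against all genes the last 2 medians stayed below 0 under all 4 scalings, from -0.155 to -0.001 and from -0.08 to -0.008. That for Blk added to BCR-ABL lay above 0 without BCR-ABL replicate 2 (0.023) and without BCR-ABL-Blk replicate 2 (0.004). Rps6, the target of the S6 kinases and a carrier of the tract shown above, had 13.23 and 13.23 in vector, 13.24 and 13.25 with BCR-ABL, and 13.29 and 13.25 with BCR-ABL-Blk. The groups stood in 1 order without overlap, but BCR-ABL-Blk minus vector was 0.04 (95% interval -0.02 to 0.11; limma adjusted p 0.727).

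Rps19, the gene most often mutated in Diamond-Blackfan anaemia, had 11.95 and 11.98 in vector, 11.79 and 11.87 with BCR-ABL, and 11.83 and 11.80 with BCR-ABL-Blk. Both vector arrays lay above the other 4, and the BCR-ABL and BCR-ABL-Blk arrays overlapped. The difference was -0.13 for BCR-ABL against vector (interval -0.27 to 0.00; limma adjusted p 0.589) and -0.15 for BCR-ABL-Blk against vector (-0.29 to -0.02; adjusted p 0.454).

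Rps14, the gene whose single-copy loss marks the anaemia of 5q- syndrome, had 13.04 and 12.98 in vector, 13.04 and 13.07 with BCR-ABL, and 13.01 and 13.06 with BCR-ABL-Blk. Its 3 groups lay within a narrow band, with a BCR-ABL minus vector difference of 0.05 (-0.03 to 0.13). Rps29, also linked to Diamond-Blackfan anaemia, had 13.31 and 13.26 in vector, 13.22 and 13.28 with BCR-ABL, and 13.21 and 13.18 with BCR-ABL-Blk. The BCR-ABL-Blk arrays were the lowest, and the difference from vector was -0.09 (-0.17 to -0.01; limma adjusted p 0.425).

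Rpsa, a 40S protein also known as the laminin receptor, differed by -0.03, -0.02 and -0.05 in the 3 comparisons, each interval including 0. Rps15a, which carries a tract, had 11.16 and 11.40 in vector and 11.37 to 11.45 on the other 4 arrays. Its low value on vector replicate 1 gives a replicate gap wider than the BCR-ABL minus vector difference of 0.13 (-0.09 to 0.35). Rps3a1, a protein near the mRNA exit, had 12.23 and 12.24 in vector, 12.29 and 12.29 with BCR-ABL, and 12.37 and 12.27 with BCR-ABL-Blk. Its vector arrays were the lowest, with a BCR-ABL-Blk minus vector difference of 0.09 (-0.03 to 0.20).

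**Figure D4:**
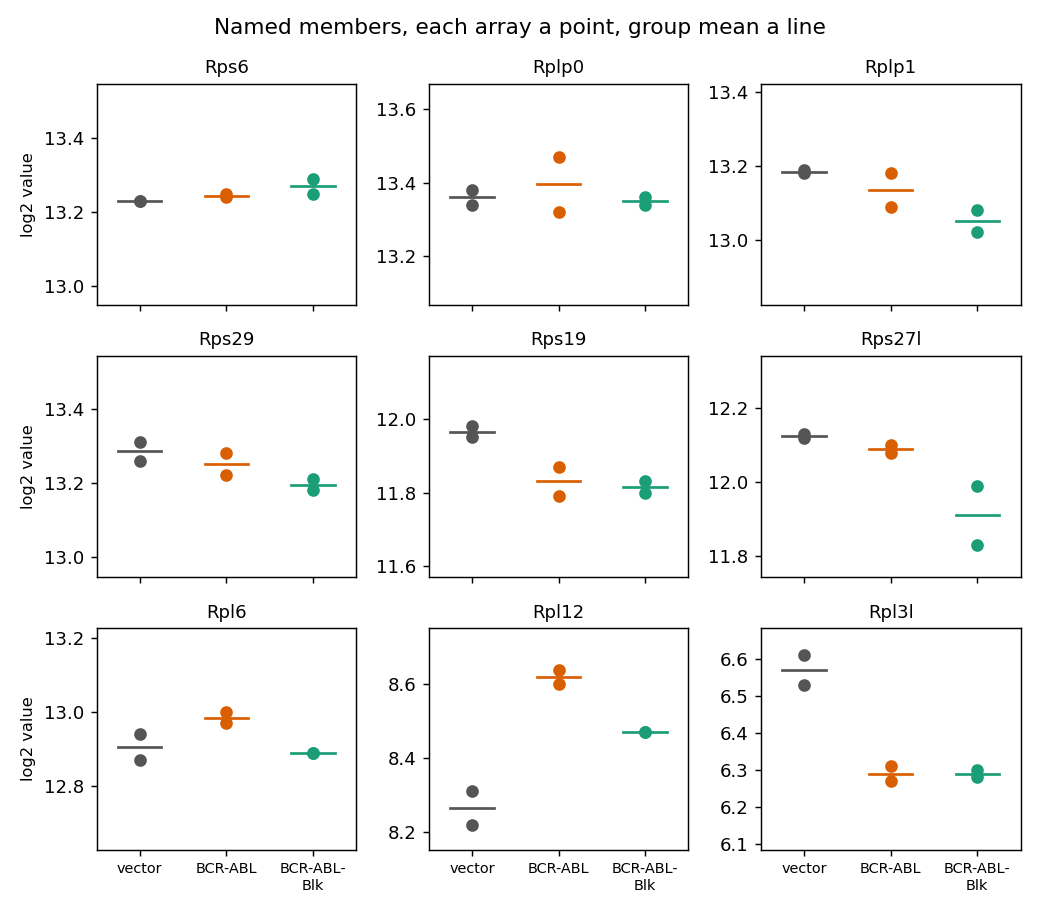
Log2 signal (y) of named ribosomal protein genes on each array, by group (x), with points for arrays and lines for group means; each panel has its own range on y. Rps27l is lower on both BCR-ABL-Blk arrays (11.99 and 11.83) than on the other 4, and Rpl12 is higher on both BCR-ABL arrays (8.64 and 8.60).

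Among the 60S and stalk genes the median difference was 0.007, -0.031 and -0.016, with 18, 9 and 13 of 33 genes above 0. The sign of the first turned with cyclic loess (-0.034), without normalization between arrays (-0.02) and without vector replicate 2 (-0.017). That of the second turned only without normalization (0.105). That of the third turned there (0.075), without vector replicate 1 (0.001) and without BCR-ABL-Blk replicate 2 (0.006). Against the all-gene median the last 2 stayed below 0 under all 4 scalings, from -0.15 to -0.016 and from -0.075 to -0.02. Without BCR-ABL-Blk replicate 2 they lay above it, by 0.009 and 0.01. Rpl12, which sits at the base of the stalk, had 8.22 and 8.31 in vector, 8.64 and 8.60 with BCR-ABL, and 8.47 and 8.47 with BCR-ABL-Blk. The 3 groups did not overlap, with BCR-ABL the highest and vector the lowest. The BCR-ABL minus vector difference of 0.36 (1.28-fold; standard error 0.129; interval 0.06 to 0.66; limma unadjusted p 0.026, adjusted p 0.477) was the largest among the members. Its signal is far below that of most members and comes from 1 probe set.

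Rplp1, an acidic stalk protein, had 13.19 and 13.18 in vector, 13.09 and 13.18 with BCR-ABL, and 13.02 and 13.08 with BCR-ABL-Blk. The BCR-ABL-Blk arrays were the lowest, with a difference from vector of -0.14 (standard error 0.040; interval -0.23 to -0.05; limma unadjusted p 0.0089, adjusted p 0.298), the smallest adjusted p among the members in any of the 3 comparisons. Rplp2, its stalk partner, had 11.28 and 11.07 in vector, 11.15 and 11.12 with BCR-ABL, and 11.06 and 11.01 with BCR-ABL-Blk. The vector replicates lie further apart than the groups' means, and the BCR-ABL-Blk minus vector difference was -0.14 (-0.36 to 0.08).

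Rplp0, which anchors the stalk to the ribosome, had 13.38 and 13.34 in vector, 13.47 and 13.32 with BCR-ABL, and 13.36 and 13.34 with BCR-ABL-Blk. The groups overlapped, and the BCR-ABL-Blk minus vector difference was -0.01 (-0.12 to 0.10).

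Rpl6, a 60S protein, had 12.94 and 12.87 in vector, 12.97 and 13 with BCR-ABL, and 12.89 and 12.89 with BCR-ABL-Blk. The BCR-ABL arrays were the highest. The difference was 0.08 against vector (limma adjusted p 0.573), and BCR-ABL-Blk minus BCR-ABL was -0.09 (-0.18 to -0.01, limma adjusted p 0.999). The latter was 0.02 without normalization between arrays, where the median of all genes was 0.255. Rpl14, with a tract, had 12.52 and 12.31 in vector, 12.62 and 12.50 with BCR-ABL, and 12.52 and 12.43 with BCR-ABL-Blk. Its groups overlapped, and the BCR-ABL minus vector difference was 0.14 (-0.04 to 0.32).

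Rpl5, which with Rpl11 and 5S RNA can bind Mdm2 and so stabilise p53, had 12.73 and 12.71 in vector, 12.77 and 12.71 with BCR-ABL, and 12.75 and 12.76 with BCR-ABL-Blk. The values form a narrow band, with differences of 0.02, 0.02 and 0.04, and Rpl11 was not analysed here. Rpl38, known for its part in the translation of Hox mRNAs and a carrier of the tract, had 12.95 and 12.98 in vector, 12.96 and 12.95 with BCR-ABL, and 13 and 12.97 with BCR-ABL-Blk. Its difference for Blk added to BCR-ABL was 0.03 (-0.04 to 0.10). Rpl8, a 60S protein near the peptidyl transferase centre, had 12.62 and 12.71 in vector, 12.51 and 12.68 with BCR-ABL, and 12.68 and 12.72 with BCR-ABL-Blk, with overlapping groups and a difference for Blk added to BCR-ABL of 0.10 (-0.05 to 0.25).

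The 8 paralogs and retrogenes are copies of ribosomal protein genes with narrower or less known use. Their median difference was -0.058, -0.088 and -0.144, with 3, 1 and 2 of 8 above 0, and 0 passed the limma test; without normalization between arrays the second was 0.16 and the third 0.003, beside all-gene medians of 0.255 and 0.15, and without vector replicate 1 the first was 0.002. Against the all-gene median the paralogs were lower under all 4 scalings, from -0.074 to -0.048, from -0.095 to -0.07 and from -0.151 to -0.147. Rps27l, a paralog of Rps27 that p53 is known to induce, had 12.12 and 12.13 in vector, 12.08 and 12.10 with BCR-ABL, and 11.99 and 11.83 with BCR-ABL-Blk. The groups did not overlap in any comparison, and the BCR-ABL-Blk arrays were lowest. BCR-ABL-Blk minus BCR-ABL was -0.18 (-0.33 to -0.02; limma unadjusted p 0.028, adjusted p 0.999), and BCR-ABL-Blk minus vector was -0.22 (standard error 0.065; -0.37 to -0.07; unadjusted p 0.011, adjusted p 0.328).

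The starts of Rpl12 and Rps27l, whose differences are among the larger ones, carry pyrimidine runs but no tract at the annotated start, and are printed with the longest run in capitals.

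Rps27l, chr9:66946071-66946100, plus strand: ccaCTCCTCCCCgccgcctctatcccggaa
Rpl12, chr2:32961697-32961726, plus strand: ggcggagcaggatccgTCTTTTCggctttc

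Rpl3l, a paralog of Rpl3 best known from striated muscle, had 6.61 and 6.53 in vector, 6.31 and 6.27 with BCR-ABL, and 6.28 and 6.30 with BCR-ABL-Blk. Both vector arrays were higher than the other 4. BCR-ABL minus vector was -0.27 (-0.48 to -0.06; limma adjusted p 0.409) and BCR-ABL-Blk minus vector was -0.28 (-0.49 to -0.07; adjusted p 0.361). The signal is below that of the median gene, and signal over background was not measured.

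Rps4l, a copy of Rps4x, had 8.31 and 8.27 in vector, 8.32 and 8.08 with BCR-ABL, and 7.94 and 8.13 with BCR-ABL-Blk. Its BCR-ABL-Blk minus vector difference was -0.25 (-0.60 to 0.09), and its probe sets disagreed in sign for BCR-ABL minus vector, with -0.09 and 0.19. Rpl32l had 9.27 and 9.44 in vector, 9.21 and 9.26 with BCR-ABL, and 9.09 and 9.17 with BCR-ABL-Blk. The vector arrays were highest and the BCR-ABL-Blk arrays lowest, with a difference of -0.22 (-0.54 to 0.10).

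Rpl7l1 had 10.39 and 10.12 in vector and 10.35 to 10.46 on the other 4 arrays, and BCR-ABL minus vector was 0.20 (-0.09 to 0.49). Rpl10l and Rpl39l, both known from testis, and the retrogene Rps23rg1 had overlapping groups, with differences between -0.11 and 0.11. Rps19bp1 had 9.72 and 10.03 in vector, 9.78 and 9.89 with BCR-ABL, and 9.64 and 9.81 with BCR-ABL-Blk, so that the vector replicates lay further apart than the group means.

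Differences of the genes with a tract at the annotated start were set beside those of the other matched members. The median of the tract genes was 0.0 against 0.01 for the 41 matched members without one there in BCR-ABL minus vector. In Blk added to BCR-ABL it was -0.025 against -0.02, and in BCR-ABL-Blk minus vector 0.015 against -0.01. Since an annotated start can hide a tract, the 41 can include genes that have one. The comparison therefore cannot tell genes with and without a tract apart. A tract acts on translation, which arrays of RNA do not measure.

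The machinery around the ribosome was read from lists. In BCR-ABL minus vector, 83 ribosome biogenesis genes had a median difference of 0.11, with 65 above 0 (78.3%; all genes 54.3%). At an unadjusted limma p under 0.05 there were 8 higher and 0 lower (9.64%; all genes 8.64%), and 0 passed after adjustment. That median was above 0 under all 14 alternatives run, from 0.08 to 0.245. In the other 2 comparisons the list had medians of -0.035 (0.14 without normalization between arrays) and 0.05. RNA polymerase I and its factors (15 genes), which transcribe ribosomal RNA, had medians of 0.158 and 0.2 in the comparisons with vector. Of these genes 11 and 13 lay above 0, and both medians were above 0 under the same alternatives. In Blk added to BCR-ABL the median was 0.001 with 8 above 0 (-0.06 with arrays centred). None passed in any of the 3. At an unadjusted limma p under 0.05 there were 2, 1 and 4 genes in that order. These are 13.3%, 6.67% and 26.7% of the list, against 8.64%, 9.42% and 3.96% of all genes. Of the 4 genes, 2 were higher and 2 lower. The medians of the 63 ribosomal protein genes were 0.005 and -0.016 in the comparisons with vector. No test was made between the lists. Translation factors (47 genes) had medians of 0.045, -0.03 and 0.004; the second was 0.11 without normalization between arrays and the third -0.003 with cyclic loess. The 29 genes of mTOR signalling and translation control had medians of -0.039, 0.06 and -0.003, all of which turned sign under another scaling. None passed the limma test. At an unadjusted limma p under 0.05 there were 3, 1 and 1 (10.3%, 3.45% and 3.45%, all genes 8.64%, 3.96% and 9.42%). The 12 measured of 22 genes linked to Diamond-Blackfan anaemia, most of them ribosomal protein genes, had medians of -0.015, -0.001 and -0.022, and 0 passed. At an unadjusted limma p under 0.05 there were 0, 0 and 2 (0%, 0% and 16.7%, against the same shares of all genes).

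**Figure D5:**
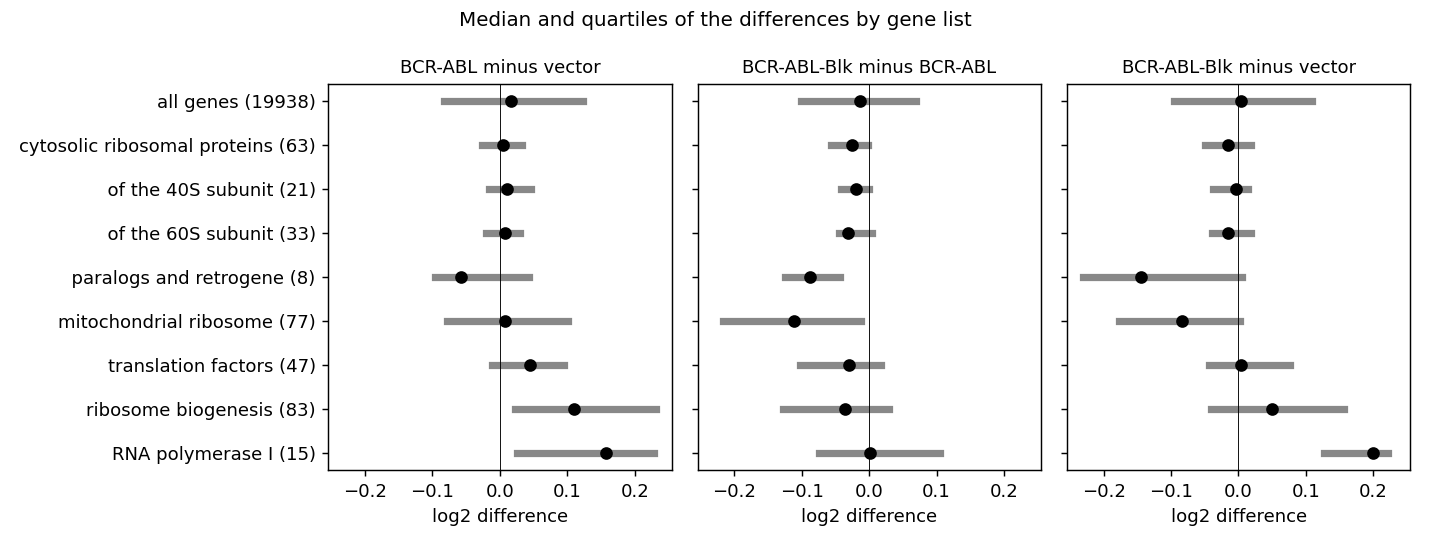
Median log2 difference (point) and the range from the lower to the upper quartile (bar) by gene list (y) in the 3 comparisons (x axis of each panel). Ribosome biogenesis (0.11) and RNA polymerase I genes (0.158) lie to the right of the ribosomal protein genes (0.005) in BCR-ABL minus vector.

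Taf1b, a factor that recruits RNA polymerase I, had 10.23 and 10.21 in vector, 10.73 and 10.63 with BCR-ABL, and 10.35 and 10.38 with BCR-ABL-Blk. BCR-ABL was the highest group without overlap, with 0.46 against vector (limma adjusted p 0.189). Riok2, a kinase of late 40S maturation, had 10.33 and 9.82 in vector and 10.57 to 10.69 on the other 4 arrays. The vector arrays were both lower but far apart, and BCR-ABL minus vector was 0.57 (limma adjusted p 0.345; 0.0161 without vector replicate 1, and 0.0161 to 0.900 over the alternatives).

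Fau, which encodes a ubiquitin-like protein fused to ribosomal protein S30 and falls outside the name rule, had 12.54 and 12.62 in vector, 12.41 and 12.44 with BCR-ABL, and 12.33 and 12.39 with BCR-ABL-Blk. The vector arrays were highest. BCR-ABL-Blk minus vector was -0.22 (limma unadjusted p 0.0021, adjusted p 0.161; 0.0466 without vector replicate 1, and 0.0466 to 0.959 over the alternatives). Mycn, which encodes a MYC family factor known to drive ribosome production, had 7.85 and 8.20 in vector, 8.71 and 9.03 with BCR-ABL, and 9.19 and 9.12 with BCR-ABL-Blk. The groups stood apart from vector, with 1.13 for BCR-ABL-Blk minus vector (limma adjusted p 0.0714; 0.0411 without vector replicate 1, 0.0207 without vector replicate 2, and 1.1e-05 to 0.273 over the alternatives).

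The 77 mitochondrial ribosomal protein genes, which serve the separate ribosome of mitochondria, had medians of 0.007, -0.111 and -0.084, with 41, 16 and 20 above 0. Without normalization between arrays these were -0.025, 0.105 and 0.07, beside all-gene medians of -0.11, 0.255 and 0.15. Against the all-gene median the second ran from -0.15 to -0.085 and the third from -0.094 to -0.08 over the 4 scalings, while the first ran from -0.014 to 0.085. None passed the limma test in any of the 3 comparisons; at an unadjusted p under 0.05 there were 2 higher and 2 lower in the first, 4 lower in the second and 10 lower in the third (5.19%, 5.19% and 13%; all genes 8.64%, 3.96% and 9.42%). Mrpl51 had 12.20 and 12.43 in vector, 12.06 and 12.15 with BCR-ABL, and 11.98 and 11.93 with BCR-ABL-Blk. The vector arrays were highest, and BCR-ABL-Blk minus vector was -0.36 (limma adjusted p 0.170; 0.0129 without vector replicate 1, and 0.0129 to 0.799 over the alternatives).

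Among 23 p53 targets, which can respond to ribosomal stress, 1 gene passed the test in BCR-ABL minus vector (all genes 0.145%). None passed in the other comparisons. At an unadjusted limma p under 0.05 there were 4 higher and 3 lower in BCR-ABL minus vector (30.4%, all genes 8.64%). There were 2 in Blk added to BCR-ABL and 5 in BCR-ABL-Blk minus vector (8.7% and 21.7%, all genes 3.96% and 9.42%). The list medians were 0.163, -0.071 and 0.073 in the same order. Each changed sign under at least 1 alternative. Perp, a p53 target of cell adhesion and apoptosis, had 7.35 and 7.22 in vector, 8.34 and 8.34 with BCR-ABL, and 7.94 and 7.79 with BCR-ABL-Blk. The 3 groups did not overlap, and it rose in BCR-ABL against vector by 1.06 (limma adjusted p 0.0402; 0.302 and 0.321 without BCR-ABL replicate 1 or 2, 0.0705 and 0.0724 without BCR-ABL-Blk replicate 1 or 2, 0.0609 with a replicate block, and 0.0139 to 0.321 over the alternatives). BCR-ABL-Blk minus BCR-ABL was -0.47 for Perp, which did not pass.

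Other probe sets of the same genes were read as well. The 156 single-symbol probe sets not kept had medians of 0.005, -0.026 and -0.016, with single sets between -0.25 and 0.19. A further 239 probe sets that name a ribosomal protein gene beside other symbols had medians of -0.002, -0.004 and -0.002, with single sets from -2.11 to 1.23, -0.19 to 0.64 and -1.49 to 1.22, wider than the kept sets. Through those alone 20 further genes are listed, among them Rpl3, Rpl11, Rps24 and Rps26, which are not analysed here.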

How the data were processed

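RNA of the 6 sorted samples was measured on Affymetrix arrays, 1 array per sample, 2 per group. The deposited values are log2 signal of 35557 probe sets, made with Affymetrix Expression Console 1.1 and RMA per the submitters' processing notes; the sources used here do not give options or genome build. The number of arrays limits the precision.

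Gene names came from the platform annotation, which can be old: 21789 of 23410 listed probe sets had 1 symbol and 1621 several. The probe set with the highest mean stood for each of 19938 genes. Deposited arrays did not share one distribution and were quantile normalized. Differences were fitted with limma 3.58.1 in R 4.3.3 (lmFit, eBayes with trend; 3 residual and 4.40 prior degrees of freedom; two-sided, Benjamini-Hochberg over 19938 genes, 95% intervals unadjusted) and tested on simulated data. Promoter windows are RefSeq's.

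Alternatives were 3 other scalings, a replicate block, no trend, array weights, a signal filter, mean probe sets and leaving out each array; other member and probe set choices and the runs on other lists were added after seeing the data.

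Named members have the smallest p, the largest differences or the extreme levels of a comparison, or are stalk, disease, S6 or paralog genes; other lists give up to 3 genes each with the smallest p, of which a few are described. Members, lists and rules were chosen with earlier results of these data known.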

Additional observations from a re-analysis of the deposited data

How the results depend on the processing

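No ribosomal protein gene passed the limma test in any of the 3 comparisons under the 14 alternatives; the smallest adjusted p was 0.104 (Rpl14, BCR-ABL minus vector, without vector replicate 1). The signal filter tested 60 members. The member median moved by more than its replicate SD of 0.016 under scalings: in BCR-ABL minus vector to -0.03 (no normalization), 0.115 (centred) and -0.045 (cyclic loess); in BCR-ABL-Blk minus BCR-ABL to 0.11 and -0.19, and to -0.004 for probe sets with several symbols; in BCR-ABL-Blk minus vector to 0.07, -0.085 and -0.05. Leaving out 1 array gave -0.01 to 0.014, -0.036 to -0.019 and -0.029 to 0.002. The sign turned in BCR-ABL minus vector without vector replicate 2 (-0.01). It also turned in BCR-ABL-Blk minus vector without vector replicate 1 (0.001) or BCR-ABL-Blk replicate 2 (0.002). The last of these moves also exceeded the replicate SD. Of 738 values of named members under alternatives 1 reversed, counting only those with an unadjusted limma p under 0.05. This was Rpl6 in BCR-ABL-Blk minus BCR-ABL, 0.02 without normalization, where the median of all genes was 0.255. Smaller differences turned sign in 54 cases. With replicate number as a block the medians were 0.005, -0.026 and -0.016, with 0 members called; deviations of same-numbered samples correlated at -0.06, 0.08 and 0.03 over all genes, not all above 0.1, and at 0.2, 0.41 and 0.22 over the 63 genes, so the numbers were not taken as pairs, and the block ended the call of Perp. With 2 arrays per group and no measure of signal over background, small differences of low-signal genes were not resolvable.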
